A study of Mus musculus with 14 samples.

Results

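The 9 genes described here encode proteins of the podocyte slit diaphragm and of the surface and actin skeleton that hold it: Nphs1, Kirrel, Cd2ap, Magi2, Trpc6, Podxl, Ptpro, Synpo and Actn4. They were taken by gene symbol from the 23682 genes present in both deposited tables, and all 9 passed the filter on low reads that left 18810 genes for testing. Their mRNA was measured by bulk RNA sequencing of whole kidneys from 14 mice in 3 groups. The 4 control mice carried the actin-rtTA transgene alone. The 10 i-TERTci mice carried actin-rtTA together with TetOp-TERTci, a pair of transgenes that lets doxycycline switch on TERTci, a catalytically inactive telomerase reverse transcriptase, throughout the body. The i-TERTci line is kept with 1 copy of each transgene. All 14 mice drank doxycycline, the controls for 30 days, the DMSO mice for 29 to 38 days and the GSK2830371 mice for 28 to 49 days. Once i-TERTci mice had heavy proteinuria, 5 were injected daily with the vehicle DMSO and 5 with GSK2830371, an inhibitor of the phosphatase WIP1, until the kidneys were taken. The labels record no injection for the controls and give neither the age nor the sex of any mouse. Because the transgene was driven in all tissues and whole kidney was sequenced, the values describe the organ and not isolated podocytes.

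Podocytes wrap the capillaries of the glomerulus with interlocking foot processes, and the slit diaphragm is the cell junction that bridges the gap between neighbouring processes and helps to keep protein out of the urine. Nephrin, the product of Nphs1, and its relative Neph1, the product of Kirrel, span the slit. Adaptors inside the cell tie them to a contractile actin skeleton, and a negatively charged coat on the upper surface keeps neighbouring processes apart. Inherited defects of several of these genes cause nephrotic syndrome. Several of the 9 genes are also expressed outside podocytes, among them Cd2ap and Actn4.

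Tert, whose count takes in any transgene reads assigned to it, ranged from 117 to 183 normalised reads in the controls, from 574 to 2732 in the DMSO mice and from 231 to 2546 in the GSK2830371 mice. No i-TERTci library overlapped the controls for Tert. The log2 difference from control was 3.24 ± 0.60 (SE) with DMSO and 2.41 ± 0.60 with GSK2830371 (limma, adjusted p = 0.000621 and 0.00484). Ppm1d, which encodes WIP1, ranged from 871 to 932, from 512 to 621 and from 560.0 to 969 normalised reads in the same order. It fell with DMSO by 0.72 ± 0.16 on the log2 scale (limma, adjusted p = 0.002), and the GSK2830371 difference of -0.38 ± 0.16 did not pass (limma, adjusted p = 0.0658). Normalised reads are whole reads divided by a size factor for each library, which removes differences in sequencing depth.

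The control libraries also stood apart from the i-TERTci libraries in other ways. Control libraries held 48.5 M to 64.6 M reads in genes and i-TERTci libraries 47.2 M to 49.4 M. Mitochondrial genes took 14.4% to 24.2% of control reads, 4.95% to 9.52% of DMSO reads and 5.07% to 8.35% of GSK2830371 reads. All 4 controls were Xist-positive, which marks female mice, against 2 of 5 DMSO mice and 3 of 5 GSK2830371 mice. The 3 Xist-positive GSK2830371 mice were those at 49 days. The comparisons were also run in Xist-positive libraries alone. With so few mice in that subset, they cannot show whether sex matters. The DMSO differences of Nphs1, Podxl and Ptpro changed sign there, to -0.062, -0.20 and -0.11, and did not pass. Between the treatments the signs of Nphs1, Kirrel, Synpo, Magi2, Actn4 and Ptpro changed there, and none passed. The mitochondrial gene mt-Nd6, encoded on the opposite strand to most others, had 147 to 656 reads in the controls, 5717 to 12180 with DMSO and 7053 to 15894 with GSK2830371. Of 814 tested genes annotated as antisense, 313 rose and 165 fell with DMSO, where 25.2% of all genes rose and 23.1% fell. With GSK2830371 303 rose and 167 fell, where 24.3% of all genes rose and 22.1% fell. Their median log2 differences were 0.32 and 0.38. Antisense genes with reads numbered 998 to 1142 in the controls, 1257 to 1357 with DMSO and 1273 to 1343 with GSK2830371. The share of all reads in antisense genes was 0.145% to 0.166%, 0.130% to 0.176% and 0.133% to 0.179% in the same order. Whether control and i-TERTci libraries were prepared and counted with the same strand setting is not given in the sources, and each comparison with control carries that doubt. Genotype, injection and the make-up of the libraries cannot be told apart in the comparisons with control.

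Markers of kidney cell types were also compared, beside 48.3% of all genes called with DMSO and 46.3% with GSK2830371. The called share was 87.5% of proximal tubule, 62.5% of parietal and 83.3% of neutrophil markers in each group. It was 71.4% and 57.1% for macrophage and 50% and 60% for glomerular endothelial markers. Distal and collecting duct markers stood at 50% in each group, near the share of all genes. Mesangial and mural markers, at 11.1% and 0%, were below it. Of 8 proximal tubule markers, 7 fell in each i-TERTci group, 4 with DMSO when control mouse 4 was left out, and their summed normalised reads were 554733 to 994904 in the controls, 137037 to 344392 with DMSO and 110254 to 378213 with GSK2830371. Every i-TERTci mouse was thus below every control for the proximal tubule sum. Of 8 distal and collecting duct markers, 4 fell in each group. Their summed reads were 228815 to 358656 in the controls, 264181 to 790153 with DMSO and 245272 to 460989 with GSK2830371. A sum mostly follows the genes with most reads. The mean log2 level of the same 8 genes was 13.90 to 14.25 in the controls. It was 12.75 to 13.86 with DMSO and 13.15 to 13.81 with GSK2830371, below every control in both groups. Of 8 genes listed as parietal epithelial markers, 4 rose and 1, Pax2, fell in each group. In whole kidney, reads of these genes cannot be assigned to parietal cells. Their summed reads were 26480.5 to 33364 in the controls, 42948 to 84333 with DMSO and 35204 to 113665 with GSK2830371. Their mean log2 level was 11.01 to 11.25 in the controls and 11.33 to 12.345 with DMSO. With GSK2830371 it was 11.13 to 12.42, which overlapped the controls. Of 10 glomerular endothelial markers, 2 rose and 3 fell with DMSO and 3 rose and 3 fell with GSK2830371, with summed reads of 32256 to 38221 in the controls, 29146 to 50103 with DMSO and 33499 to 44464 with GSK2830371. Of 9 mesangial and mural markers, 1 fell with DMSO and 0 changed with GSK2830371, with summed reads of 27495 to 41439.6 in the controls, 25833 to 41762 with DMSO and 32340.1 to 55480.4 with GSK2830371. The endothelial and mural sums overlapped between controls and both i-TERTci groups. Of 7 macrophage markers, 4 rose and 1 fell with DMSO and 4 rose with GSK2830371. Their summed reads were 6368 to 8468 in the controls, 6534 to 30078 with DMSO and 9559 to 28798 with GSK2830371. Their mean log2 level was 8.63 to 9.31 in the controls, 9.34 to 11.17 with DMSO and 9.77 to 11.07 with GSK2830371. Of 6 neutrophil markers, 5 rose in each group, with summed reads of 132 to 225 in the controls, 704 to 24358 with DMSO and 471 to 14894 with GSK2830371; S100a8, Ngp and Retnlg were at 0 in at least 1 control library. The part of these shifts in the results for the 9 genes was not tested. In whole-kidney RNA, fewer podocytes and less of an mRNA per podocyte cannot be told apart.

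Promoters are shown for 4 of the genes: Nphs1 and Ptpro, whose levels varied together from mouse to mouse, and Cd2ap and Magi2, which changed in opposite directions. Each is the 250 bases before the transcription start in RefSeq (GRCm38.p6), written 5′ to 3′ on the gene's own strand. Capitals mark matches to 5 motifs searched on both strands: TAATTA (LMX1B type), GTAAACA (forkhead), CANNTG (E-box), GTGGGNG (WT1 type) and TGCTGAC (MAF type). The Nphs1 window is chr7:30459808-30460057 (+), the Ptpro window chr6:137252049-137252298 (+), the Cd2ap window chr17:42876425-42876674 (-) and the Magi2 window, at the first of its RefSeq starts, chr5:19226796-19227045 (+).
Nphs1: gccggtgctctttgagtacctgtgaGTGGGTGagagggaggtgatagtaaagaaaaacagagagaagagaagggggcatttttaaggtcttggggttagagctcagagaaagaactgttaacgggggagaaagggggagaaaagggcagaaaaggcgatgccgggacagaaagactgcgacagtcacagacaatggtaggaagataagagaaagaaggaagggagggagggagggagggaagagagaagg
Ptpro: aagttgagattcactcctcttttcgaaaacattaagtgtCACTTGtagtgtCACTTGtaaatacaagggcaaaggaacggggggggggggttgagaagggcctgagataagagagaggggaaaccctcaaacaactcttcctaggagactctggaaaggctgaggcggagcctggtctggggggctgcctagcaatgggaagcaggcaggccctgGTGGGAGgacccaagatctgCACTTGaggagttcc
Cd2ap: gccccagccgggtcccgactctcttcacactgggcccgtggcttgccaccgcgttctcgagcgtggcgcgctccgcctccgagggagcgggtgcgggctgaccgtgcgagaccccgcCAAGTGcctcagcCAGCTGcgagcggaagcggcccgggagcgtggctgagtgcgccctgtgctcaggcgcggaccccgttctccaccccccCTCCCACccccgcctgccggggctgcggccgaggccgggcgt
Magi2: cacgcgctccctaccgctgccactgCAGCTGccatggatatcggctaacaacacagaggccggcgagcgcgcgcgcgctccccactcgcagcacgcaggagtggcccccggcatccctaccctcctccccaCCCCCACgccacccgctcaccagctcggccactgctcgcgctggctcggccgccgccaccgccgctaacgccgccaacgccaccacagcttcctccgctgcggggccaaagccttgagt
The Nphs1 window held 1 match, the WT1-type GTGGGTG, and lies within the longer Nphs1 gene model of GENCODE. The Ptpro window held 3 E-boxes, each CACTTG, and 1 WT1-type match, GTGGGAG. The Cd2ap window held 2 E-boxes and 1 WT1-type match, and the Magi2 window held 1 of each. Most of the Cd2ap window also lies within the GENCODE gene, whose upstream edge is at chr17:42876665. Such matches are common: over 32851 RefSeq promoters of the same length, 66.2% held an E-box and 28.1% a WT1-type match, against 4.84% for TAATTA, 3.17% for GTAAACA and 3.81% for TGCTGAC, none of which was in these 4 windows. GC content was 50.8% for Nphs1 and 53.6% for Ptpro, near the median of 52.4% over all promoters. It was 76.4% for Cd2ap and 72% for the Magi2 window shown. Another RefSeq start of Magi2, with the window chr5:19907268-19907517 (+), is not shown. That window had a GC content of 41.2% and held a TAATTA match and an E-box, CACCTG.

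The groups were compared with a limma fit over all 18810 genes, and a gene was called changed at a Benjamini-Hochberg adjusted p below 0.05. In DMSO-treated i-TERTci kidneys Cd2ap rose, Synpo and Magi2 fell, and the other 6 genes did not pass. That is 3 of 9 genes against 48.3% of all genes called in this comparison: 1 of 9 rose, against 25.2% of all genes, and 2 of 9 fell, against 23.1%. In GSK2830371-treated i-TERTci kidneys Cd2ap and Kirrel rose and Synpo and Magi2 fell, 4 of 9 against 46.3% of all genes: 2 of 9 rose, against 24.3%, and 2 of 9 fell, against 22.1%. Between GSK2830371 and DMSO, 0 of 9 passed, against 0 of 18810 genes (0%) by limma, where 800 genes had an unadjusted p below 0.05. edgeR called 0 genes there and DESeq2 called 1. The share of the 9 genes called was thus at or below the share of all genes in each comparison. The median log2 difference of the 9 genes was 0.24 with DMSO and -0.06 with GSK2830371 relative to control, beside 0.03 and 0.01 over all genes, and rises and falls stood side by side. Both comparisons with control use the same 4 control mice.

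**Figure D1:**
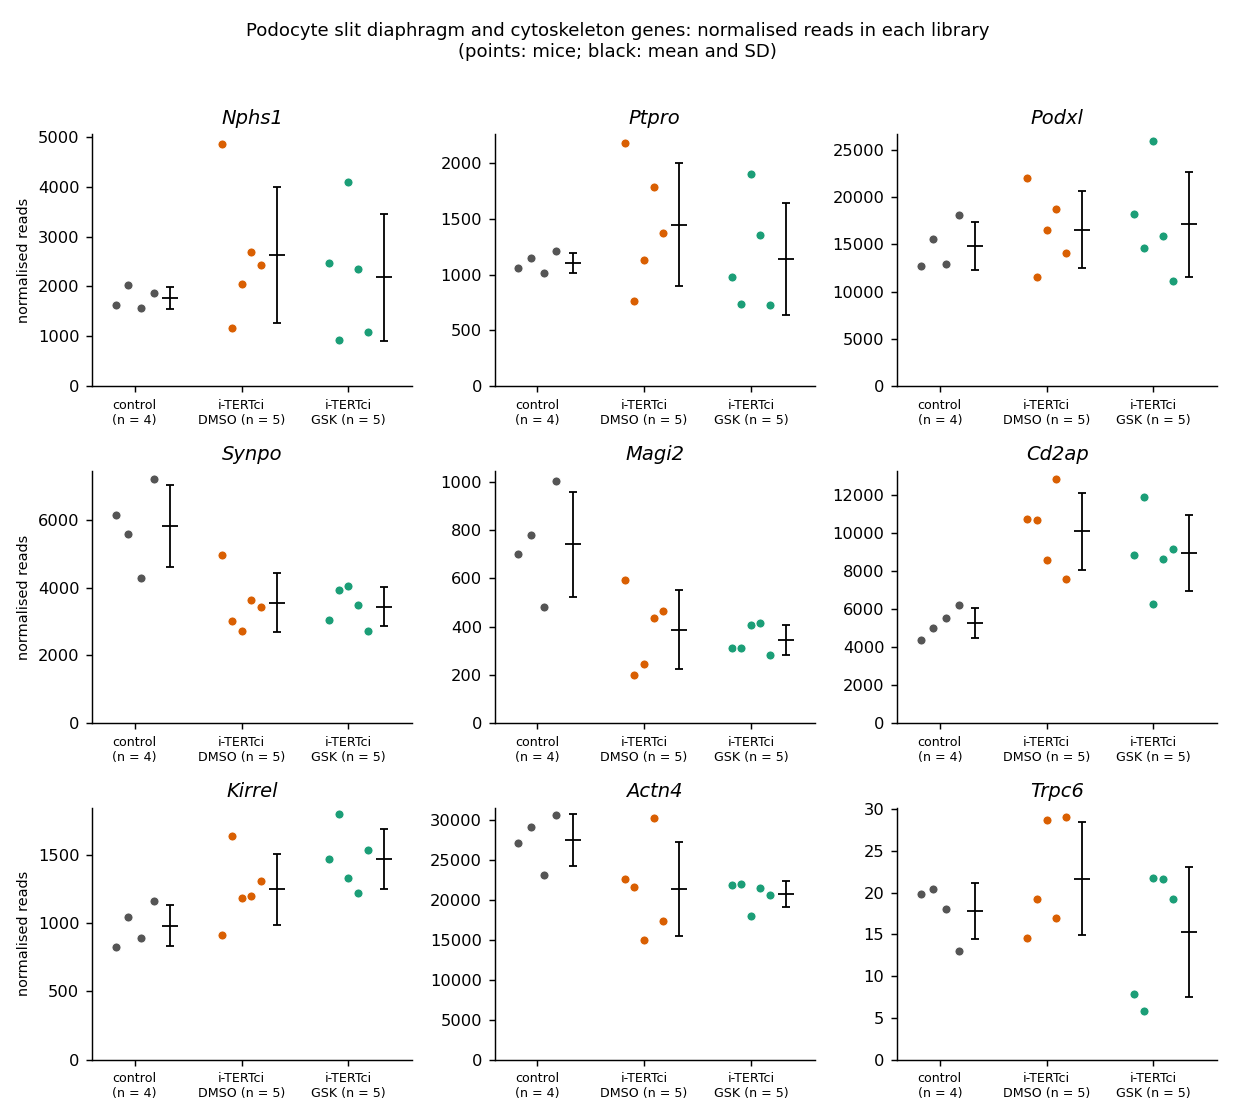
Normalised reads (vertical axis, from 0, a scale for each gene) of the 9 genes in the 4 control, 5 DMSO and 5 GSK2830371 libraries. Points are mice, and the black mark is the mean with its SD. Cd2ap lies above every control in all 10 i-TERTci mice, while Nphs1 and Ptpro spread widely on both sides of the control range.

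**Figure D2:**
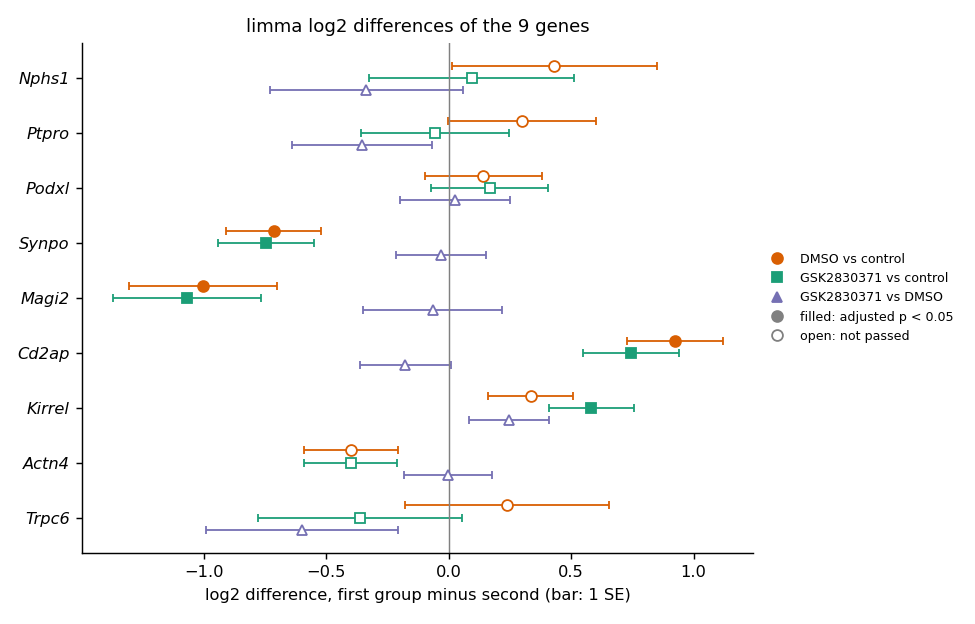
Log2 differences (horizontal axis, bar 1 SE) of the 9 genes in the 3 comparisons. Filled symbols passed an adjusted p of 0.05: Cd2ap, Synpo and Magi2 against control in both treatment groups, and Kirrel against control with GSK2830371.

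Nphs1 (ENSMUSG00000006649, GRCm38 chr7:30458315-30487223, + strand) encodes nephrin, the adhesion protein that forms the core of the slit. It had 1632, 2038, 1560.4 and 1863 normalised reads in the 4 control mice and 4849.9, 1172, 2044, 2683 and 2432 in the 5 DMSO mice. The 5 GSK2830371 mice had 2468, 923, 4082, 2355 and 1078. Values here and below are listed by replicate number, which the labels use to number the mice of a group. The controls kept within a narrow band, and the i-TERTci mice lay both above and below it: 4 of 5 DMSO mice and 3 of 5 GSK2830371 mice exceeded every control, and DMSO mouse 2 and GSK2830371 mice 2 and 5 were below every control. Group means were 1773 ± 219 (SD, n = 4) in the controls, 2636 ± 1364 (n = 5) with DMSO and 2182 ± 1277 (n = 5) with GSK2830371. The log2 difference from control was 0.43 ± 0.42 (SE; 95% interval -0.46 to 1.32) with DMSO and 0.09 ± 0.42 (-0.80 to 0.99) with GSK2830371, and neither passed (limma, adjusted p = 0.414 and 0.871). The antisense gene Nphs1os overlaps 597 bases, or 9.02%, of the Nphs1 exons. Nphs1os had 0 reads in all 4 controls, 4 to 18 in the DMSO mice and 3 to 14 in the GSK2830371 mice, and without a stated strand setting reads of the overlap cannot be told apart.

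Kirrel (ENSMUSG00000041734, chr3:87078593-87174747, - strand) encodes Neph1, which binds nephrin across the slit. It had 826, 1044, 892 and 1158 normalised reads in the 4 control mice, 913, 1634, 1184, 1198 and 1310.2 in the 5 DMSO mice, and 1466, 1795, 1328, 1219 and 1531 in the 5 GSK2830371 mice. With GSK2830371 every mouse was above every control, while with DMSO the lowest mouse lay inside the control range. Means were 979.8 ± 149.9 (SD, n = 4) in the controls, 1248 ± 261 (n = 5) with DMSO and 1468 ± 219 (n = 5) with GSK2830371. Kirrel rose by 49.8% with GSK2830371 (95% interval of the fold 1.16 to 1.93; log2 0.58 ± 0.17; limma, adjusted p = 0.0123). With DMSO the value was 1.26-fold (0.98 to 1.63; log2 0.34 ± 0.17), which did not pass (limma, adjusted p = 0.121). Without DMSO mouse 1 that comparison passed, at a log2 difference of 0.44 (limma, adjusted p = 0.0392). A fit of mice at 31 days or fewer leaves 2 with GSK2830371. Neither is Xist-positive, while all 4 controls are, so time and sex cannot be told apart in it. The GSK2830371 difference in that fit was 0.62 and did not pass (limma, adjusted p = 0.0512). GSK2830371 minus DMSO was 0.25 ± 0.16 (95% interval -0.10 to 0.59).

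Cd2ap (ENSMUSG00000061665, chr17:42792951-42876665, - strand) encodes an adaptor that links nephrin to actin and to survival signalling. It had 4344, 5013, 5509.5 and 6213 normalised reads in the 4 control mice, 10702, 10666, 8563, 12824 and 7594 in the 5 DMSO mice, and 8828, 11873, 6262, 8603 and 9139 in the 5 GSK2830371 mice. Every i-TERTci mouse was above every control, so neither treatment group overlapped the controls. Means were 5269.8 ± 789.5 (SD, n = 4) in the controls, 10070.0 ± 2046 (n = 5) with DMSO and 8941 ± 1996 (n = 5) with GSK2830371. Cd2ap rose 1.89-fold with DMSO (95% interval 1.42 to 2.53; log2 0.92 ± 0.20; limma, adjusted p = 0.00128) and 1.68-fold with GSK2830371 (1.26 to 2.24; log2 0.75 ± 0.20; limma, adjusted p = 0.00584). GSK2830371 minus DMSO was -0.18 ± 0.18 (-0.57 to 0.21).

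Magi2 (ENSMUSG00000040003, chr5:19227036-20704792, + strand) encodes a scaffold that gathers nephrin and its partners under the membrane. It had 702, 778, 479 and 1004 normalised reads in the 4 control mice, 591, 197, 243, 437 and 465 in the 5 DMSO mice, and 311, 311, 408, 413 and 281 in the 5 GSK2830371 mice. All 5 GSK2830371 mice were below every control, and with DMSO only mouse 1 reached the control range. Means were 741 ± 216 (SD, n = 4) in the controls, 387 ± 164 (n = 5) with DMSO and 345 ± 61.3 (n = 5) with GSK2830371. Magi2 fell by 1.0 ± 0.30 on the log2 scale with DMSO (limma, adjusted p = 0.0123) and by 1.07 ± 0.30 with GSK2830371 (limma, adjusted p = 0.00898), which are the largest falls of the 9 genes. Without control mouse 4, the highest of all, the DMSO difference was -0.84 and did not pass (limma, adjusted p = 0.0506). GSK2830371 minus DMSO was -0.07 ± 0.28 (95% interval -0.67 to 0.54).

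Trpc6 (ENSMUSG00000031997, chr9:8544142-8680741, + strand) encodes a calcium channel at the slit diaphragm. It had few reads, with 19.8, 20.4, 18.1 and 12.9 normalised reads in the 4 control mice, 14.5, 19.3, 28.7, 16.9 and 29.0 in the 5 DMSO mice, and 7.89, 5.81, 21.7, 21.6 and 19.2 in the 5 GSK2830371 mice. The groups overlapped throughout. The log2 difference from control was 0.24 ± 0.42 with DMSO and -0.36 ± 0.42 with GSK2830371 (limma, adjusted p = 0.659 and 0.498). With SEs of this size, the 95% intervals ran from -0.64 to 1.12 and from -1.24 to 0.52.

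Podxl (ENSMUSG00000025608, chr6:31519488-31563981, - strand) encodes podocalyxin, the charged protein of the podocyte's upper surface, which endothelial cells also make. It had 12731, 15525, 12894 and 18103 normalised reads in the 4 control mice, 22024, 11499, 16488, 18699 and 14104 in the 5 DMSO mice, and 18236, 14568, 25884, 15864 and 11079.6 in the 5 GSK2830371 mice. Both i-TERTci groups reached above and below the controls. Means were 14813 ± 2539 (SD, n = 4) in the controls, 16563 ± 4065 (n = 5) with DMSO and 17126 ± 5537 (n = 5) with GSK2830371. The log2 difference from control was 0.14 ± 0.24 (95% interval -0.36 to 0.65) with DMSO and 0.17 ± 0.24 (-0.34 to 0.67) with GSK2830371 (limma, adjusted p = 0.648 and 0.587).

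Ptpro (ENSMUSG00000030223, chr6:137252319-137463233, + strand) encodes GLEPP1, a receptor tyrosine phosphatase of the same surface. It had 1056, 1146, 1014 and 1210.1 normalised reads in the 4 control mice, 2178, 767, 1134, 1779 and 1368 in the 5 DMSO mice, and 976, 738, 1904, 1355 and 724 in the 5 GSK2830371 mice. The controls differed by 1.19-fold from lowest to highest, the DMSO mice by 2.84-fold and the GSK2830371 mice by 2.63-fold. Means were 1106 ± 88.4 (SD, n = 4) in the controls, 1445 ± 550.1 (n = 5) with DMSO and 1139 ± 498 (n = 5) with GSK2830371. The log2 difference from control was 0.30 ± 0.30 (95% interval -0.34 to 0.94) with DMSO and -0.06 ± 0.30 (-0.70 to 0.58) with GSK2830371 (limma, adjusted p = 0.432 and 0.892).

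Synpo (ENSMUSG00000043079, chr18:60593973-60660142, - strand) encodes synaptopodin, which stabilises the actin bundles of foot processes. It had 6154, 5606, 4306 and 7233 normalised reads in the 4 control mice, 4976, 3008, 2734, 3655 and 3446 in the 5 DMSO mice, and 3063, 3924, 4055, 3493 and 2714 in the 5 GSK2830371 mice. All 5 GSK2830371 mice were below every control, and with DMSO 4 of 5 were, mouse 1 alone being higher than the lowest control. Means were 5825 ± 1217 (SD, n = 4) in the controls, 3564 ± 868 (n = 5) with DMSO and 3449.8 ± 566 (n = 5) with GSK2830371. Synpo fell by 0.72 ± 0.19 on the log2 scale with DMSO, to 0.61 of control (95% interval 0.46 to 0.81; limma, adjusted p = 0.00696). It fell by 0.75 ± 0.19 with GSK2830371, to 0.60 of control (0.45 to 0.79; limma, adjusted p = 0.00561). GSK2830371 minus DMSO was -0.03 ± 0.18 (-0.42 to 0.36).

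Actn4 (ENSMUSG00000054808, chr7:28893248-28962340, - strand) encodes alpha-actinin-4, which crosslinks actin filaments and is made in many kidney cells. It had 27046, 29099, 23110.0 and 30576 normalised reads in the 4 control mice, 22565, 21556, 14997, 30258 and 17284 in the 5 DMSO mice, and 21785, 21937, 17946, 21455 and 20579 in the 5 GSK2830371 mice. The GSK2830371 mice lay below every control in a tight band, whereas DMSO mouse 4 was near the highest control. Means were 27458 ± 3240.1 (SD, n = 4) in the controls, 21332 ± 5869 (n = 5) with DMSO and 20740.1 ± 1648 (n = 5) with GSK2830371. The log2 difference from control was -0.40 ± 0.19 with either treatment and did not pass (limma, adjusted p = 0.0964 with DMSO and 0.0972 with GSK2830371). Without DMSO mouse 4 the DMSO difference was -0.54 and passed (limma, adjusted p = 0.0213). In mice at 31 days or fewer it was also -0.54 (limma, adjusted p = 0.0444), since DMSO mouse 4 is the only DMSO mouse beyond that time. Exons of Capn12 on the opposite strand overlap 5.16% of the Actn4 exons, so some reads there cannot be assigned to one gene.

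Counted by separation, meaning that all mice of a group lay on the same side of all controls, 1 of the 9 genes, Cd2ap, was separated with DMSO, against 38.8% of all genes, 20% being higher and 18.8% lower than control. With GSK2830371 5 of 9 were separated, Kirrel, Cd2ap, Synpo, Magi2 and Actn4, against 40.3% of all genes. Of these, 2 were higher than control, against 20.8% of all genes, and 3 were lower, against 19.6%. GSK2830371 and DMSO mice were separated for 0 of 9, and for 0.484% of the tested genes (0.239% higher and 0.245% lower with GSK2830371).

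Per kilobase of exon, the 9 genes spanned a wide range of levels. In control kidneys Actn4 was highest at 4481 ± 529 normalised reads per kb (SD, n = 4), followed by Podxl at 2699 ± 463 and Synpo at 611 ± 128. Cd2ap at 332 ± 50 and Nphs1 at 268 ± 33 followed, and their ranges, 274 to 392 and 236 to 308, overlapped. Ptpro at 165 ± 13 and Kirrel at 131 ± 20 overlapped too, at 151 to 180.0 and 111 to 155. Magi2 had 65.3 ± 19.1 and Trpc6 3.51 ± 0.67. In the i-TERTci groups Cd2ap had the third highest mean, at 635 ± 129 with DMSO and 564 ± 126 with GSK2830371 (SD, n = 5), and its range overlapped those of Nphs1 and Synpo in both. Synpo stood at 374 ± 91 and 362 ± 59 and overlapped the range of Nphs1 in both, which had 398 ± 206 and 329.5 ± 193. Exon length was taken as all annotated exons merged, so a gene that uses shorter transcripts in kidney reads too low.

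The 9 genes were next set against 19 other podocyte genes, among them the transcription factor Wt1. The mean log2 level of these 19 genes per library served as a podocyte reference. In whole kidney their reads cannot be assigned to podocytes alone, so a ratio to them is not a level per podocyte. The 19 genes did not move together. Their log2 differences from control ran from -3.19 to 1.25 with DMSO and from -3.29 to 1.38 with GSK2830371. The reference ranged from 10.17 to 10.55 in the controls, from 9.71 to 9.98 in the DMSO mice and from 9.46 to 10.44 in the GSK2830371 mice. The group mean was 10.42 in controls, 9.87 with DMSO and 9.90 with GSK2830371, and taking the reference off adds this fall to every gene alike. On that scale the median of all 18810 genes was 0.57 higher with DMSO and 0.53 higher with GSK2830371 than in controls, and 35.3% and 25% of all genes lay above the controls with no overlap. The log2 level of Podxl relative to this reference was 0.69 higher with DMSO and 0.68 higher with GSK2830371 than in controls, with no overlap in either group. For Kirrel the values were 0.88 and 1.10, again with no overlap. For Ptpro they were 0.85 and 0.46 with no overlap, though the lowest GSK2830371 mouse (-0.165) was close to the highest control (-0.184). For Cd2ap they were 1.47, with no overlap, and 1.26, where the lowest GSK2830371 mouse entered the control range. For Nphs1 they were 0.98 and 0.61 with overlap in both. Synpo at -0.17 and -0.23, Magi2 at -0.46 and -0.55, and Actn4 at 0.15 and 0.11 overlapped the controls in both groups. For Trpc6 they were 0.79, with no overlap, and 0.15 with overlap. The shift of all genes is part of each of these values. These differences were not tested.

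**Figure D3:**
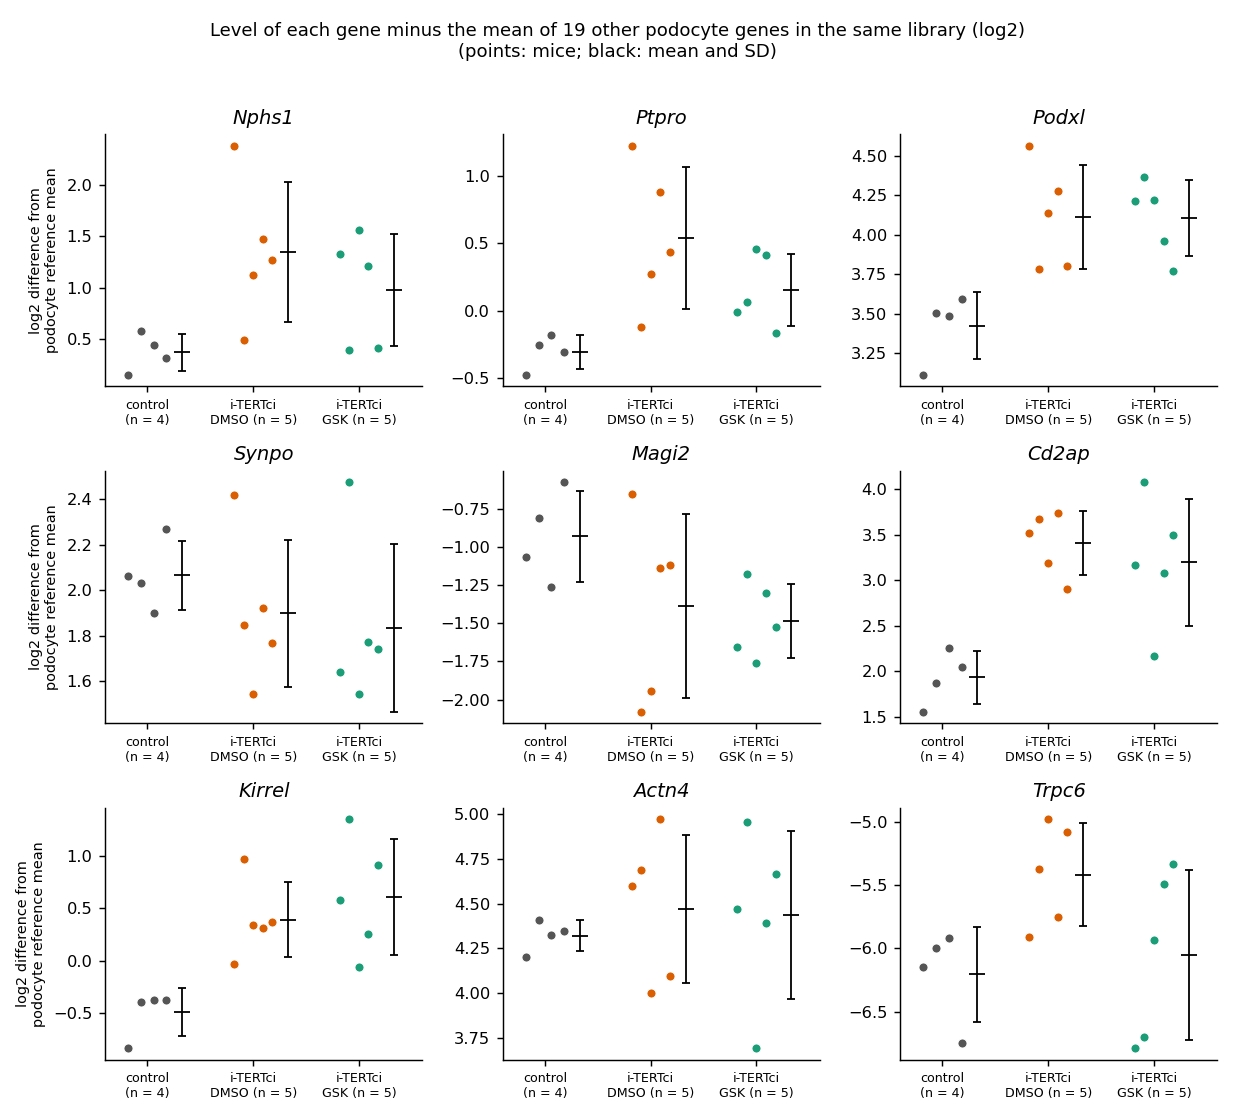
Log2 level of each gene minus the mean log2 level of 19 other podocyte genes in the same library (vertical axis). Points are mice, and the black mark is the mean with its SD. Podxl, Ptpro and Kirrel lie above every control in all 10 i-TERTci mice, and Synpo, Magi2 and Actn4 overlap the controls. For Ptpro the lowest GSK2830371 mouse, at -0.165, is close to the highest control, at -0.184. On this scale 35.3% of all genes with DMSO and 25% with GSK2830371 lie above the controls with no overlap.

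The spread between mice differed among the genes. For Nphs1 the SD of the log2 level was 0.18 in the controls, 0.74 with DMSO and 0.89 with GSK2830371. Ptpro went from 0.11 to 0.58 and 0.60. The median gene went from 0.29 to 0.42 and 0.37. Of all genes tested, 77.3% with DMSO and 87.7% with GSK2830371 had a lower SD than Nphs1, compared with 23.2% in the controls. Kirrel and Cd2ap, by contrast, had SDs of 0.30 with DMSO and 0.21 and 0.33 with GSK2830371.

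Genes that varied with Nphs1 were ranked by Pearson's r over the 14 libraries, after each group's mean was taken out, among 14346 genes with at least 50 normalised reads on average. Both genes of a pair are read from the same library, so composition and depth are shared, and the values are descriptions. Ptpro had r = 0.94 and ranked second of all genes, and Podxl had 0.87 and ranked 30th. The median gene had 0.03, and 0.662% of genes had more than 0.8. Magi2 had 0.70 and Synpo 0.52, Actn4 had 0.03, Cd2ap had -0.41 and Kirrel had -0.70. Spearman's rho was 0.87 for Ptpro, 0.77 for Podxl and -0.56 for Kirrel. Without the 2 libraries farthest from the median for Nphs1, mouse 2 of each i-TERTci group, r was 0.92 for Ptpro, 0.89 for Podxl and -0.47 for Kirrel. Within the 10 i-TERTci libraries alone r was 0.94, 0.89 and -0.84. Among pairs of the other ranked genes, the highest r was 0.86 for Podxl and Ptpro. Synpo and Magi2 had 0.82, Magi2 and Ptpro 0.79, and Cd2ap and Actn4 0.69. The lowest was -0.69 for Kirrel and Ptpro.

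**Figure D4:**
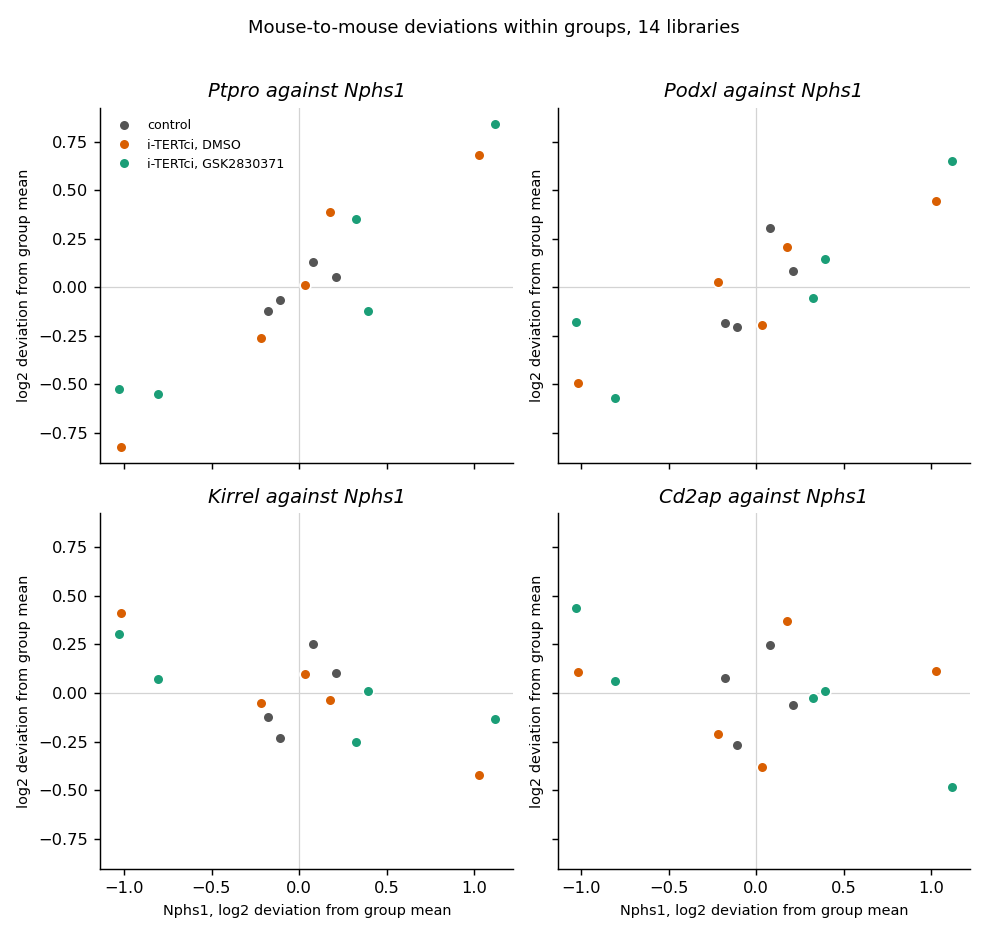
Log2 deviation from the group mean of Ptpro, Podxl, Kirrel and Cd2ap (vertical axes) against that of Nphs1 (horizontal axis) in 14 libraries. Ptpro and Podxl vary along with Nphs1 (r = 0.94 and 0.87), Kirrel runs the other way (-0.70) and Cd2ap scatters (-0.41).

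The 5 genes nearest to Nphs1 were Adhfe1 (0.96), a mitochondrial alcohol dehydrogenase, Ptpro, Wif1 (0.94), a secreted Wnt inhibitor, Egf (0.94), the growth factor of the distal nephron, and Myom2 (0.93), a protein of the muscle M-band. Egf had 29883, 65917, 74122 and 71907 normalised reads in the 4 control mice, 114080.0, 12629.5, 27918, 46219 and 40306 in the 5 DMSO mice, and 67405, 6307, 120694, 57829.9 and 21311 in the 5 GSK2830371 mice. The mice with the lowest Egf, DMSO mouse 2 and GSK2830371 mouse 2, were also the lowest of their groups for Nphs1. DMSO mouse 1 and GSK2830371 mouse 3, the highest for Egf, were the highest for Nphs1. Of the markers of other cells, 5 of 8 proximal tubule genes had r above 0.5 with Nphs1 (median 0.58), as did 3 of 8 distal and collecting duct genes (median 0.14) and 2 of 6 neutrophil genes (median 0.48), against 11.6% of all genes. It was above 0.5 for 0 of 8 parietal genes (median -0.52), 0 of 7 macrophage genes (median -0.62), 1 of 10 endothelial genes (median 0.19) and 1 of 9 mural genes (median -0.35). Of the 19 other podocyte genes 11 had r above 0.5 (median 0.60). The part of tubule and immune RNA in the mouse-to-mouse variation of Nphs1 was not tested.

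Of 13 tested partners and signalling proteins, 5 rose and 3 fell with DMSO, and 4 rose and 3 fell with GSK2830371, with median log2 differences of 0.39 and 0.21. That is 61.5% and 53.8% of the list, beside 48.3% and 46.3% of all genes, which also moved in both directions. Without control mouse 1, and likewise without DMSO mouse 3, the DMSO count was 4 up and 1 down, and at 31 days or fewer the GSK2830371 count was 2 up and 2 down. Cask, a scaffold kinase, had the smallest p and rose by 0.74 ± 0.17 and 0.91 ± 0.17 (limma, adjusted p = 0.00202 and 0.000516). The Neph1 relatives Kirrel2 and Kirrel3 were singled out after their values were seen. Kirrel2 was at 0.47 ± 0.56 and 0.40 ± 0.56, which did not pass (limma, adjusted p = 0.508 and 0.579). Kirrel3 fell by 1.61 ± 0.39 and by 1.87 ± 0.39 (limma, adjusted p = 0.00324 and 0.00123). It ranged over 69.2 to 104 (controls), 14.5 to 47.2 (DMSO) and 13.5 to 39.2 (GSK2830371) normalised reads. Kirrel itself rose with GSK2830371 and did not pass with DMSO. Pard3, a polarity protein with the smallest p between the treatments, differed there by 0.28 ± 0.20 (limma, adjusted p = 0.994).

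A list of 22 actin genes held regulators known from podocyte disease and general actin proteins. Of these 22, 2 rose and 7 fell with DMSO and 2 rose and 9 fell with GSK2830371, with medians of -0.28 and -0.20. That is 40.9% and 50% of the list, beside 48.3% and 46.3% of all genes, of which 23.1% and 22.1% fell. Slc9a3r2, whose product NHERF2 ties podocalyxin to ezrin and actin, fell by 1.93 ± 0.29 and by 1.73 ± 0.29 with DMSO and GSK2830371 (limma, adjusted p = 0.000104 and 0.00027). It ranged over 5470.4 to 10997 (controls), 1261 to 2923 (DMSO) and 1472 to 3412 (GSK2830371) normalised reads, with no overlap between controls and either group. Inf2, a formin mutated in inherited glomerular disease, was at 0.35 ± 0.15 and 0.25 ± 0.15, which did not pass (limma, adjusted p = 0.0737 and 0.195). Tns2, a tensin of focal contacts, had the smallest p between the treatments. It fell by 0.94 ± 0.18 and by 0.63 ± 0.18 relative to control (limma, adjusted p = 0.000668 and 0.0105), and GSK2830371 minus DMSO was 0.31 ± 0.17 (limma, adjusted p = 0.994).

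Among the 19 other podocyte genes 3 rose and 8 fell with DMSO, and 3 rose and 9 fell with GSK2830371, with medians of -0.55 and -0.60. That is 57.9% and 63.2% of the list, beside 48.3% and 46.3% of all genes. Wt1, the transcription factor that maintains podocyte identity, fell by 1.0 ± 0.24 and by 0.93 ± 0.24 (limma, adjusted p = 0.00311 and 0.00533). Thsd7a, a foot process membrane protein, went the other way and rose by 1.25 ± 0.18 and 1.38 ± 0.18 (limma, adjusted p = 6.1e-05 and 3.1e-05), from 425 to 586 (controls), 1014 to 1448 (DMSO) and 969.9 to 1763 (GSK2830371) normalised reads. Clic5, which joins ezrin and podocalyxin at the foot process membrane, had the smallest p between the treatments, at 0.41 ± 0.16 (limma, adjusted p = 0.994). In none of these 3 lists did a gene pass between GSK2830371 and DMSO.

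**Figure D5:**
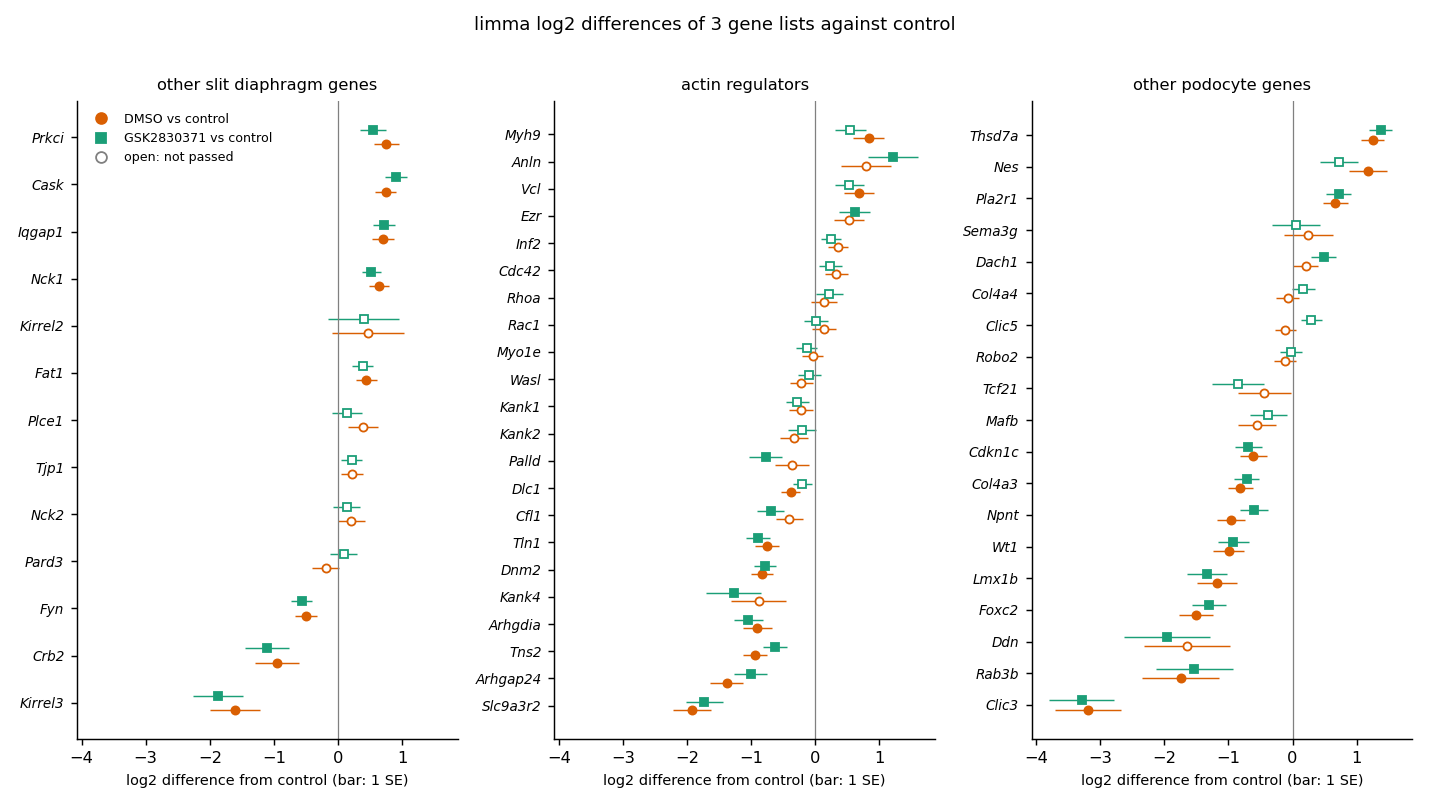
Log2 differences from control (horizontal axes, bar 1 SE) of 13 other slit diaphragm genes, 22 actin regulators and 19 other podocyte genes with DMSO (circles) and GSK2830371 (squares). Filled symbols passed. Among actin regulators 2 rose and 7 fell with DMSO, among other podocyte genes 3 rose and 8 fell, and Thsd7a, Cask and Kirrel3 have the values given in the text.

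Scaling to the total of non-mitochondrial reads in place of size factors raised the median log2 difference of all genes from 0.03 to 0.15 with DMSO and from 0.01 to 0.12 with GSK2830371. The calls for the 9 genes were the same under that scaling. Cd2ap and Synpo passed in both comparisons with control under every alternative run. The labels number the mice of a group but say nothing more of how they were kept or sampled. Each p-value weighs a difference between group means against the spread between these mice. That spread is pooled over the groups, so it does not show where groups differ in spread, as for Nphs1.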

How the data were processed

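RNA from 14 whole kidneys, extracted with DNase treatment and kept where the RNA integrity number passed the study's limit, was sequenced by a service laboratory, per the labels' protocols. Per the submitters' processing notes, the tools were STAR, Trimmomatic, FastQC and DESeq2 (no versions listed) with build mm10. Which counter, annotation and strandedness were used is not given in the sources.

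The 2 deposited tables hold signal per gene, which the authors made by dividing whole read counts by 1 size factor per library within each table. Both tables hold the same 4 controls. Every value tested was a whole multiple of its library's step within 0.001 (100% of values), so whole reads were recovered, with 0 mismatches between tables in the controls. The genes in both tables, 23682, were used, and 539 and 482 genes in only 1 were left out.

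Size factors (median of ratios) were recomputed for the 14 libraries together, and reads were scaled by them and taken as log2 after adding 1, so a fold change on that scale understates the change of genes with few reads, such as Trpc6. filterByExpr kept 18810 genes. limma 3.58.1 (trend, robust) fitted all 14 libraries in 1 model, with 3 two-sided contrasts, Benjamini-Hochberg adjustment over all genes and a threshold of 0.05. edgeR 4.0.16, DESeq2 1.42.0, R 4.3.3, Python 3.11.15 and matplotlib 3.10.9 were also used. The fit was tested on simulated data. Alternatives covered scaling, filter, pseudocount, test, left-out mice, sex, time and replicate number. Depth was 47.2 M to 64.6 M reads in genes per library.

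Gene positions and exon lengths are those of GENCODE M21 on GRCm38, in which 22780 genes (96.2%) were found, and promoters from RefSeq, which held 7 of the 9 genes. The 9 genes and the gene lists were chosen with earlier results of these data known. The text names the 9 genes, the gene at the head of the actin and podocyte lists, the gene of these and the slit diaphragm list with the smallest p in each comparison, the 5 genes of highest r with Nphs1, Tert and Ppm1d. Pax2 has the smallest p of its marker list. Kirrel2, Kirrel3, mt-Nd6, the neutrophil genes at 0 and the genes that overlap Nphs1 and Actn4 lie outside this rule and were named after their values were seen. Other lists are given by their counts. The result for 1 further gene is not reported here, and it was left out of its list's counts.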

Additional observations from a re-analysis of the deposited data

How the results depend on the processing

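Of 720 values of the 9 genes under other settings, 675 kept their direction and their side of the threshold, 40 changed sign without being called, 3 newly passed and 2 no longer passed. Cd2ap and Synpo in both comparisons with control, and Magi2 with GSK2830371, passed under every alternative. Leaving out 1 mouse at a time gave 2 to 4 of the 9 genes changed with DMSO, 4 each time with GSK2830371 and 0 each time between the treatments, and over all genes 7633 to 9099, 7254 to 9080 and 0. Other settings gave 3 to 4, 3 to 4 and 0 of the 9 genes, and 6156 to 10253 genes with DMSO and 7249 to 9867 with GSK2830371 over all genes. Between the treatments DESeq2 called 1 gene and the Xist-positive libraries alone gave 2.

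The calls that changed were Magi2 with DMSO without control mouse 4 (-0.84) and Kirrel with GSK2830371 at 31 days or fewer (0.62), which no longer passed, and Kirrel with DMSO without DMSO mouse 1 (0.44) and Actn4 with DMSO without DMSO mouse 4 or at 31 days or fewer (-0.54), which passed. The signs that changed all belong to differences that did not pass before or after the change. Ptpro with GSK2830371 against control was 0.053 when scaled to non-mitochondrial reads, 0.045 with edgeR, 0.037 with DESeq2 and 0.17 in Xist-positive libraries. In those libraries the DMSO differences from control were -0.062 for Nphs1, -0.20 for Podxl and -0.11 for Ptpro, and GSK2830371 minus DMSO was 0.29 for Nphs1, -0.036 for Kirrel, 0.25 for Synpo, 0.30 for Magi2, 0.077 for Actn4 and 0.27 for Ptpro. With Xist status as a covariate Nphs1 with GSK2830371 was -0.0013 and Actn4 between the treatments 0.020. At 31 days or fewer Nphs1 and Podxl with GSK2830371 were -0.11 and -0.044, and between the treatments Podxl was -0.13 and Actn4 0.17. With TMM factors Actn4 between the treatments was 0.0019. Without 1 mouse at a time, the log2 difference between the treatments ran from -0.12 to 0.13 for Actn4, -0.28 to 0.12 for Magi2, -0.14 to 0.17 for Podxl and -0.12 to 0.097 for Synpo, and that of GSK2830371 from control from -0.18 to 0.35 for Nphs1 and -0.27 to 0.081 for Ptpro. The cause was not tested.

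With the replicate block, limma called 9589 genes with DMSO, 9248 with GSK2830371 and 0 between the treatments. It called the same number of the 9 genes, and the sign of Ptpro with GSK2830371 changed to 0.011. The labels do not say whether same-numbered mice are paired. Correlations of deviations between same-numbered mice ran from -0.060 to 0.085 (DMSO and control) and from 0.045 to 0.10 (GSK2830371 and control). Between GSK2830371 and DMSO they ran from -0.031 to 0.34. In the same order, 2 of 4, 4 of 4 and 2 of 5 correlated best with their own number. These values are a hint from the data and not from the design, and they do not settle pairing. Among the marker lists, the proximal tubule count with DMSO was 4 without control mouse 4, and the single mesangial call was lost in several settings. Trpc6 has the fewest reads of the 9 genes, and its SE (0.42 against control) is the same as that of Nphs1 to 2 decimals.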
